A study of Mus musculus with 10 samples.

Results

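The 9 genes described here were grouped as genes of immature migrating neurons: Dcx, Tubb3, Sox4, Sox11, Nhlh1, Nhlh2, Insm1, Mfap4 and Cxcr4. Not all of them are confined to that stage, since neurons keep Tubb3 into maturity and Insm1 and Cxcr4 also act in precursors. They were taken by symbol from a table of 39769 genes, and all 9 passed the filter on low counts that left 15617 genes for testing. The table holds RNA of 10 mouse libraries from cerebellum or medulloblastoma, the cerebellar tumour that arises from granule neuron precursors. By label, 3 AKP libraries came from medulloblastoma of mice with Atoh1-Cre (spelled AtohI-Cre in the labels), Kmt2dfl/+ and Ptch+/-, of which AKP 1 and AKP 2 were 2 months old and AKP 3 was 4 months old. The 3 NKP libraries are labelled as medulloblastoma of mice with Nestin-Cre, Kmt2dfl/+ and Ptch+/-, all at 4 months. The 4 Ptch libraries are labelled as cerebellum of Ptch+/- mice whose labels name neither Cre nor floxed Kmt2d, of which Ptch 1 and Ptch 2 were 4 months old and the others 2 months. Every group, the controls included, thus lacks 1 intact copy of Ptch, the receptor gene whose product restrains Sonic hedgehog signalling. Atoh1-Cre acts in granule neuron precursors and other rhombic lip cells, and Nestin-Cre in neural progenitors of the whole brain, so the cells that lost a Kmt2d copy differ between AKP and NKP. No control with Cre alone, and none with the floxed allele alone, is among the groups, so effects of Cre and of Kmt2d cannot be told apart.

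Granule neuron precursors divide in the outer layer of the young cerebellum, leave the cycle, pass through a short immature stage and then migrate inward to become granule neurons. Immature cells switch on transcription factors of neuronal commitment, build a microtubule skeleton for movement and respond to guidance signals from the meninges and from one another. In the adult mouse cerebellum this layer is gone, so most of these genes are low there, while hedgehog-driven medulloblastoma holds cells stalled along the same path.

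Several libraries went against their labels, and they are named below by label only. Kmt2d, the floxed gene, was at 34.3, 41.3 and 43.6 CPM (counts scaled to a common library size) in the libraries labelled AKP 1 to 3 and at 33.2, 46.9 and 58.0 CPM in those labelled NKP 1 to 3, against 68.4, 57.3, 56.3 and 52.6 CPM in those labelled Ptch 1 to 4. With its 58.0 CPM, NKP 3 was above 3 of the 4 Ptch libraries, and a gene-level count cannot show whether the floxed exons were lost. Mki67, a marker of dividing cells, and Atoh1, the defining factor of granule neuron precursors, were near 0 in 3 libraries labelled medulloblastoma: the highest values in AKP 1, NKP 1 and NKP 2 were 0.719 CPM for Mki67 and 0.221 CPM for Atoh1. They were highest in Ptch 1 and Ptch 2, which are labelled cerebellum, with 84.1 and 80.4 CPM of Mki67 and 14.8 and 16.4 CPM of Atoh1. The summed level of 4 Y-linked genes, split at 10 CPM, contradicted the labelled sex of 4 libraries (AKP 3, NKP 3, Ptch 1 and Ptch 3). NKP 2 was not among them, but held 74.8 CPM of the X-linked Xist beside 68.4 CPM of the Y-linked genes. The other libraries with Y-linked expression held at most 15.0 CPM of Xist (AKP 1). Libraries of different labels were also as alike as the closest ones of 1 label. Over the counts of all genes tested, the chi-square per degree of freedom was 3.44 between AKP 1 and NKP 1 and 3.81 between NKP 3 and Ptch 4, beside 3.46 between Ptch 1 and Ptch 2 and 3.28 between Ptch 3 and Ptch 4. Within a label it reached 37.0 in AKP (AKP 1 with AKP 2), 16.6 in NKP (NKP 1 with NKP 3) and 28.8 in Ptch (Ptch 2 with Ptch 3). The folds below compare libraries by label.

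Across the 10 libraries the 9 genes split the samples in nearly the same way, and that split was not the one of the labels. The libraries labelled AKP 2, AKP 3, Ptch 1 and Ptch 2 were the 4 highest for 9 of 9 genes. AKP 1, NKP 1 and NKP 2 were the 3 lowest for 8 of 9 genes, all but Mfap4. Ptch 1 and Ptch 2 were the 2 highest for 8 of 9 genes, all but Tubb3. The library labelled NKP 3 was the 4th lowest for 7 of 9 genes. The share of all genes tested with these orders was not counted, so the split cannot be called particular to the 9 genes. The summed level of 7 microglia markers had the same 4 highest libraries, with 309 CPM in AKP 2, 259 CPM in AKP 3, 251 CPM in Ptch 1 and 233 CPM in Ptch 2. It was at 203 and 202 CPM in Ptch 3 and Ptch 4, and at 180 to 185 CPM in AKP 1 and the 3 NKP libraries. The summed level of 6 markers of proliferating precursors also had the same 4 highest libraries, and AKP 1, NKP 1 and NKP 2 as its 3 lowest. The part of microglia or of proliferating precursors in the split was not tested. Since these are bulk samples, fewer immature neurons and less RNA per cell cannot be told apart.

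**Figure D1:**
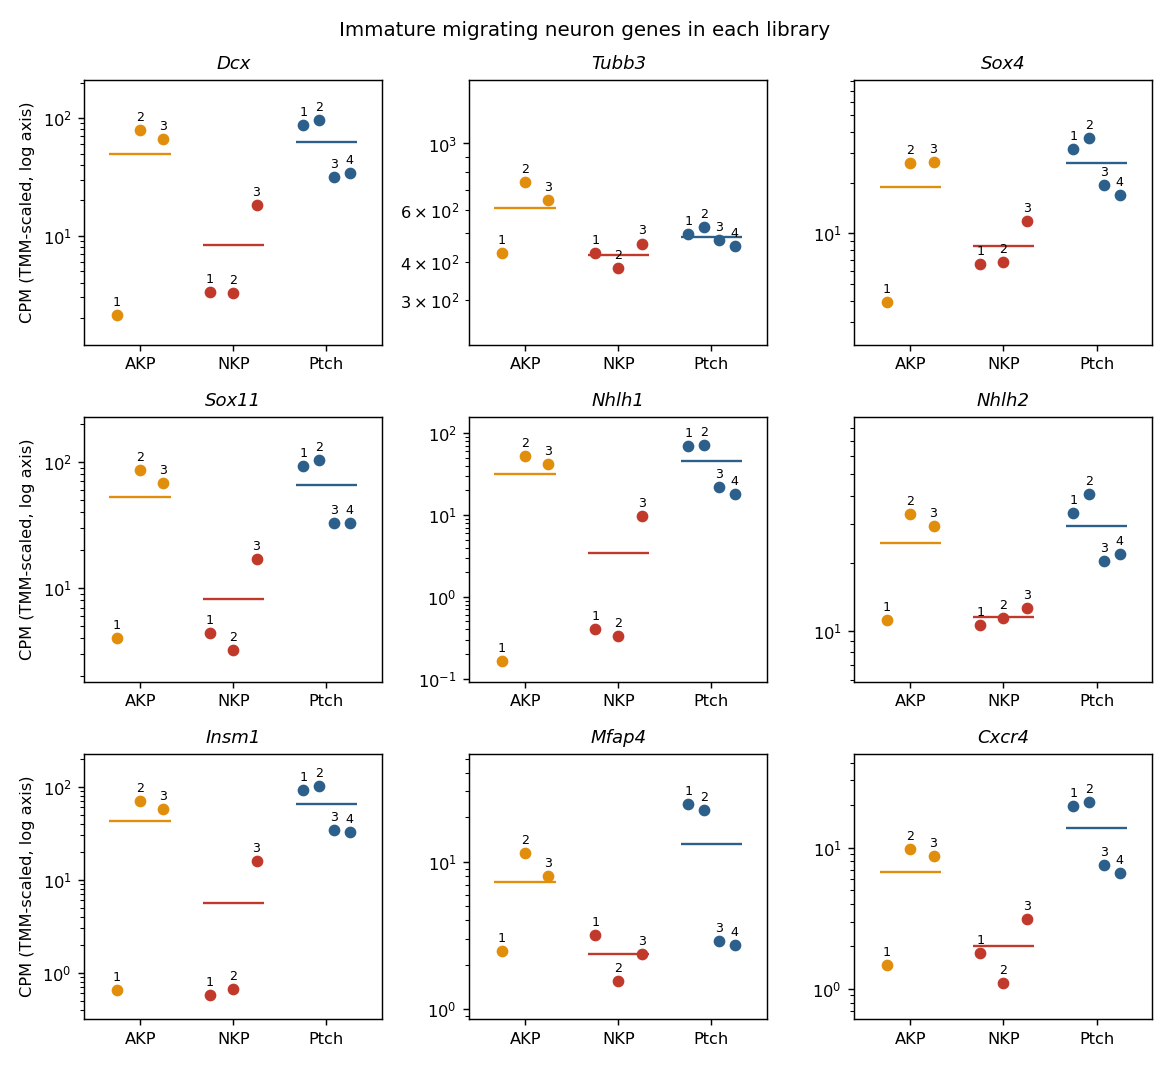
CPM on a log axis in each of the 10 libraries, grouped by label (AKP, NKP, Ptch). Points are libraries with their replicate number and horizontal lines are group means. AKP 1, NKP 1 and NKP 2 lie far below the other libraries for Dcx, Sox11, Nhlh1 and Insm1, while all 10 libraries of Tubb3 lie between 382 and 743 CPM.

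Dcx (chrX:143855842-143933396 in GRCm38.p6) encodes doublecortin, a microtubule-associated protein of migrating neuroblasts whose loss in humans disturbs cortical migration. It was at 2.14, 79.9 and 66.5 CPM in the libraries labelled AKP 1 to 3 and at 3.35, 3.26 and 18.3 CPM in those labelled NKP 1 to 3, against 88.0, 96.3, 31.8 and 34.04 CPM in those labelled Ptch 1 to 4. All NKP libraries lay below all Ptch libraries. AKP 1 lay below all Ptch libraries too, while AKP 2 and AKP 3 lay within the Ptch range. In NKP against Ptch the fitted log2 fold change was -2.87 (SE 1.19), which did not pass over all genes tested (edgeR adjusted p = 0.283). Against the same Ptch libraries AKP had -0.33 (SE 1.04, edgeR adjusted p = 0.883), and without AKP 1 it was 0.23.

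Tubb3 (chr8:123411553-123422015) encodes class III beta-tubulin, a tubulin that neurons keep into maturity. It was at 429, 743 and 646 CPM in AKP 1 to 3 and at 429, 382 and 462 CPM in NKP 1 to 3, against 499, 525, 474 and 453 CPM in Ptch 1 to 4. It was the only one of the 9 that was highest in AKP 2 and AKP 3. Its highest library exceeded its lowest by 1.95-fold, as against 45.1-fold for Dcx. Per kilobase of the longest annotated transcript, Dcx stood at 0.00103 to 0.0378 of the Tubb3 level within a library, lowest in AKP 1 and highest in Ptch 2. The NKP and Ptch libraries overlapped (log2 fold change -0.20, edgeR adjusted p = 0.517). For Tubb3 the log2 fold change of AKP over Ptch was 0.31 with an SE of 0.151, which did not pass (edgeR adjusted p = 0.218), and without AKP 1 it passed at 0.51 (edgeR adjusted p = 0.0134), in a fit that called 4.88% of all genes higher. The same libraries stood apart for brainstem markers, whose 6 genes summed to 74.0 and 59.0 CPM in AKP 2 and AKP 3, against 28.5 to 35.1 CPM in the Ptch libraries. The part of other neurons in the Tubb3 values was not tested.

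Sox4 (chr13:28948919-28953699) and Sox11 (chr12:27334268-27342718) belong to the SoxC group of high-mobility-group transcription factors, which turn on pan-neuronal genes as cells leave the cycle. Sox11 was at 4.03, 85.6 and 68.4 CPM in AKP 1 to 3 and at 4.42, 3.26 and 17.1 CPM in NKP 1 to 3, against 92.0, 103, 32.6 and 32.6 CPM in Ptch 1 to 4. Sox4 was at 3.95, 26.3 and 26.5 CPM in AKP 1 to 3 and at 6.54, 6.74 and 11.8 CPM in NKP 1 to 3, against 31.4, 36.9, 19.2 and 16.9 CPM in Ptch 1 to 4. For both genes the NKP libraries lay wholly below the Ptch libraries and the AKP libraries overlapped them. The log2 fold changes in NKP against Ptch were -2.95 (SE 1.11, edgeR adjusted p = 0.253) for Sox11 and -1.63 (SE 0.628, edgeR adjusted p = 0.256) for Sox4. For AKP against Ptch they were -0.30 and -0.46, and without AKP 1 they were 0.24 and 0.013.

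The balance of the pair shifted with its level. Per kilobase, Sox11 stood at 1.88 and 1.49 times Sox4 in AKP 2 and AKP 3, and at 1.69 and 1.61 times in Ptch 1 and Ptch 2. It stood at 0.589 times Sox4 in AKP 1 and at 0.389, 0.279 and 0.833 times in NKP 1 to 3, with Ptch 3 and Ptch 4 between at 0.978 and 1.11. Sox12, the remaining SoxC gene, varied less: it was at 13.6, 30.1 and 23.1 CPM in AKP 1 to 3 and at 14.8, 10.999 and 17.7 CPM in NKP 1 to 3, against 37.3, 37.1, 24.0 and 21.7 CPM in Ptch 1 to 4. Its log2 fold change in NKP against Ptch was -1.05 (SE 0.301, edgeR adjusted p = 0.218).

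The promoters of this pair are shown because both SoxC genes hold the same E-box, CAGCTG, a class of site that proneural helix-loop-helix factors bind. The 250 bases before each RefSeq start (GRCm38.p6) are given 5′ to 3′ on the gene's strand, with the E-box in capitals.
Sox4 (chr13:28953700-28953949, minus strand): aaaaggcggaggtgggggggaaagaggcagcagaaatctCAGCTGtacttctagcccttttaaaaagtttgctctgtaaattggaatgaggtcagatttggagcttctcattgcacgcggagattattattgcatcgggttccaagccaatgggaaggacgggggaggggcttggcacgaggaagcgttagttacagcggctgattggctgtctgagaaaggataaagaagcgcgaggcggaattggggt
Sox11 (chr12:27342719-27342968, minus strand): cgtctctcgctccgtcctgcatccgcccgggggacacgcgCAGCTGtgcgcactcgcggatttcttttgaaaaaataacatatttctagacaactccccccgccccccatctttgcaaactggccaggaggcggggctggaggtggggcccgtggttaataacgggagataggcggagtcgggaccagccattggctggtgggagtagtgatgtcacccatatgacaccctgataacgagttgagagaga
In the 7 genes with an entry both strands were searched for the E-boxes CAGCTG and CAGATG, the Gli site TGGGTGGTC and the Sox site AACAAAG. The first of them was in 2 of 7 genes, as against 13.0% of 32851 promoters of the same length, the Gli letters were in 0 of 7, as against 0.225%, and the Sox letters in 1 of 7 (Dcx), as against 5.03%. For Sox11 and Nhlh1 the bases just after the RefSeq start were not found in a GENCODE vM21 transcript of the gene, so the place of their starts is less sure. A match is a description of the letters and not of binding. The motifs do not overlap in the sequences shown.

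Nhlh1 (chr1:172052292-172057596) and Nhlh2 (chr3:102010111-102015492) encode related helix-loop-helix factors expressed briefly in newly postmitotic neurons. Nhlh1 was at 0.164, 53.0 and 41.6 CPM in AKP 1 to 3 and at 0.409, 0.332 and 9.69 CPM in NKP 1 to 3, against 70.03, 72.2, 22.3 and 18.3 CPM in Ptch 1 to 4. The lowest values rest on few counts: 2 in AKP 1 (95% exact Poisson interval of the level 0.0199 to 0.594 CPM), 5 in NKP 1 and 6 in NKP 2. Nhlh2 was at 11.1, 33.04 and 29.3 CPM in AKP 1 to 3 and at 10.6, 11.4 and 12.6 CPM in NKP 1 to 3, against 33.4, 40.9, 20.4 and 22.0 CPM in Ptch 1 to 4. Nhlh1 was thus nearly absent from the same 3 libraries in which Nhlh2 kept a level of 10.6 CPM or more.

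Within a library, Nhlh1 per kilobase stood at 2.57 and 2.28 times Nhlh2 in AKP 2 and AKP 3, at 1.23 times in NKP 3 and at 3.36, 2.83, 1.75 and 1.33 times in Ptch 1 to 4. In AKP 1 it stood at 0.0237 times (0.00287 to 0.0856 over the 95% exact Poisson interval of the Nhlh1 count), and in NKP 1 and NKP 2 at 0.0615 and 0.0466 times. The order of the pair was therefore turned in 3 of 10 libraries, none of them labelled Ptch. The log2 fold changes in NKP against Ptch were -3.64 (SE 1.54, edgeR adjusted p = 0.291) for Nhlh1 and -1.33 (SE 0.383, edgeR adjusted p = 0.218) for Nhlh2. Nhlh2 had the smaller change and the smaller spread, with NKP at 11.5 ± 0.990 CPM (SD, n = 3) and Ptch at 29.2 ± 9.71 CPM (SD, n = 4). DESeq2 called Nhlh2 lower in that comparison (adjusted p = 0.0103). With AKP against Ptch, Nhlh1 had -0.52 and Nhlh2 -0.25, and without AKP 1 these were 0.053 and 0.095.

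The Nhlh pair also shares an E-box before its starts, here CAGATG, which was in 2 of 7 genes, as against 14.4% of all 32851 promoters. It is in capitals in the 250 bases before each start, read as above.
Nhlh1 (chr1:172057597-172057846, minus strand): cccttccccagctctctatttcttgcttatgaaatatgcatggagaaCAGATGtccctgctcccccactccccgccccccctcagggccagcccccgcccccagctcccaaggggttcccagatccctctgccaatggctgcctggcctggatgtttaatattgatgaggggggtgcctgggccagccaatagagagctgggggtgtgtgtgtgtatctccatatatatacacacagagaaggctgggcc
Nhlh2 (chr3:102009895-102010144, plus strand): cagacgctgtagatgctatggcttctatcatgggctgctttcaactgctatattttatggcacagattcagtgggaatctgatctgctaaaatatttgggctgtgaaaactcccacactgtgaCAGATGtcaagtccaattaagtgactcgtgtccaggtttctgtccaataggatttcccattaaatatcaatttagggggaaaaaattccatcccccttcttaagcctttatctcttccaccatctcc
These stretches differ in base composition, with 58.4% G and C before Nhlh1 and 42.0% before Nhlh2, beside a median of 52.4% over all promoters.

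**Figure D2:**
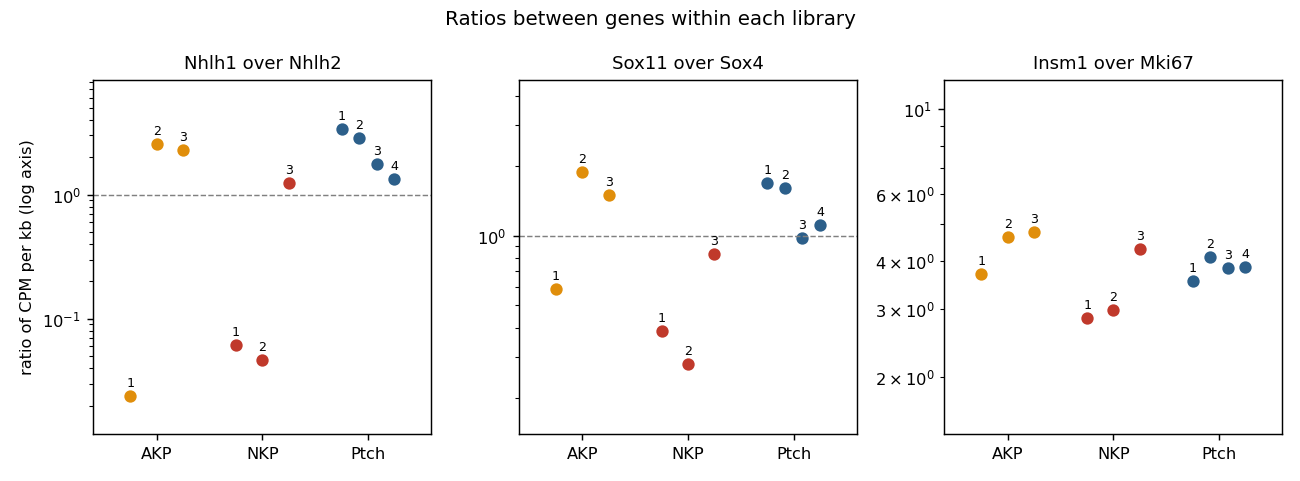
Ratio of CPM per kilobase between genes of the same library on a log axis, by label (AKP, NKP, Ptch), with replicate numbers at the points and, for the Nhlh and SoxC pairs, a dashed line at equal levels. Nhlh1 exceeds Nhlh2 in 7 libraries and lies below 0.1 of it in AKP 1, NKP 1 and NKP 2, whereas Insm1 stays between 2.84 and 4.76 times Mki67 in all 10.

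Insm1 (chr2:146221997-146225020) encodes a zinc-finger repressor that moves neural progenitors toward delamination and neuronal fate. It was at 0.658, 69.98 and 56.9 CPM in AKP 1 to 3 and at 0.572, 0.663 and 15.7 CPM in NKP 1 to 3, against 92.4, 102, 34.0001 and 32.4 CPM in Ptch 1 to 4. The highest library exceeded the lowest, which had 7 counts, by 178-fold. Its log2 fold change was -3.47 in NKP against Ptch (SE 1.48, edgeR adjusted p = 0.294) and -0.61 in AKP against Ptch (SE 1.25, edgeR adjusted p = 0.810), where it was -0.036 without AKP 1. Insm1 ran beside Mki67, a pair picked with its values known. Per kilobase it stood at 3.71, 4.62 and 4.76 times Mki67 in AKP 1 to 3 and at 2.84, 2.996 and 4.32 times in NKP 1 to 3, against 3.57, 4.10, 3.84 and 3.86 times in Ptch 1 to 4. In AKP 1, NKP 1 and NKP 2 these ratios rest on 7 to 13 counts of either gene. Dcx did not keep such a ratio: it stood at 4.12, 5.68 and 5.03 times Mki67 in those 3 libraries, and at 1.16 to 1.90 times in the other 7.

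Mfap4 (chr11:61485431-61488708) encodes a glycoprotein of extracellular microfibrils. It was at 2.47, 11.5 and 7.96 CPM in AKP 1 to 3 and at 3.19, 1.55 and 2.35 CPM in NKP 1 to 3, against 24.5, 22.4, 2.90 and 2.73 CPM in Ptch 1 to 4. Here Ptch 3 and Ptch 4 lay within the range of the NKP libraries, so the groups overlapped. The log2 fold change was -2.49 in NKP against Ptch (SE 1.001, edgeR adjusted p = 0.270) and -0.83 in AKP against Ptch (SE 0.904, edgeR adjusted p = 0.621), where it was -0.43 without AKP 1. Fibroblast and mural markers, which mark cells that also make microfibril proteins, summed to 199 to 243 CPM in AKP and 200 to 288 CPM in NKP, against 155 to 192 CPM in Ptch. Their part in the Mfap4 values was not tested.

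Cxcr4 (chr1:128588199-128592299) encodes the receptor for the chemokine Cxcl12, which the meninges release to hold granule precursors at the surface. It was at 1.48, 9.81 and 8.77 CPM in AKP 1 to 3 and at 1.799, 1.11 and 3.12 CPM in NKP 1 to 3, against 19.9, 20.9, 7.58 and 6.59 CPM in Ptch 1 to 4. The NKP libraries lay wholly below the Ptch libraries. The log2 fold change in NKP against Ptch was -2.76 (SE 0.748), which did not pass by edgeR (adjusted p = 0.218) and passed by DESeq2 (adjusted p = 0.0189). In AKP against Ptch it was -1.03 (SE 0.671, edgeR adjusted p = 0.384), and without AKP 1 it was -0.56. The ligand gene Cxcl12 averaged 42.8 ± 5.09 CPM over AKP (SD, n = 3), 51.6 ± 8.09 CPM over NKP (SD, n = 3) and 41.9 ± 1.903 CPM over Ptch (SD, n = 4). It did not pass in NKP against Ptch, with a log2 fold change of 0.30 (edgeR adjusted p = 0.233). Ackr3, which binds and removes Cxcl12, was between 6.72 and 10.4 CPM in all 10 libraries. Microglia also carry Cxcr4, and their summed markers had the same 4 highest (AKP 2, AKP 3, Ptch 1 and Ptch 2) and the same 4 lowest libraries (AKP 1 and NKP 1 to 3) as Cxcr4, at 185 to 309 CPM in AKP and 180 to 182 CPM in NKP, against 202 to 251 CPM in Ptch. Summed markers of proliferating precursors had the same 4 highest and 4 lowest libraries too. The part of either cell type in the Cxcr4 values was not tested.

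The libraries labelled NKP were set against those labelled Ptch, with the libraries in doubt (NKP 1 to 3, Ptch 1 to 3) included. All 9 genes had a fold change below 0, as did 47.7% of all genes tested, with a median log2 fold change of -2.76, beside 0.01 over all genes tested. NKP lay wholly below Ptch for 7 of 9 genes, all but Tubb3 and Mfap4, and 8.95% of all genes tested did so. By edgeR 0 of 9 genes passed an adjusted p of 0.05, and 0% of all genes did, while DESeq2 called 2 of 9 lower (Nhlh2 and Cxcr4), as against 2.15% of all genes. At an unadjusted p below 0.05 edgeR had 7 of 9 genes, all lower, as against 10.2% of all genes lower and 17% in either direction. Without NKP 3 the log2 fold changes of Nhlh1, Insm1 and Dcx were -6.94, -6.68 and -4.23, with no call (edgeR adjusted p = 0.169, 0.151 and 0.186). Leaving out NKP 1, NKP 2, Ptch 1 or Ptch 2 put Dcx between -2.67 and -2.48, with no call of the 9 genes. With the 4 sex-discordant libraries dropped, Nhlh1 had -6.93, Insm1 -6.73, Dcx -4.30 and Cxcr4 -3.26, again with no call (edgeR adjusted p = 0.551, 0.538, 0.554 and 0.533).

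Age differed between the groups, since all NKP libraries were of 4 months. With the libraries of 4 months only (3 NKP, with Ptch 1 and Ptch 2), edgeR called 4 of the 9 genes lower: Mfap4 (log2 fold change -3.34, adjusted p = 3.4e-06), Nhlh2 (-1.68, adjusted p = 1.33e-05), Cxcr4 (-3.33, adjusted p = 2.53e-05) and Sox4 (-2.02, adjusted p = 0.000136). That fit called 9.73% of 15876 genes lower, and 2574 genes in all. With age as a covariate edgeR called Nhlh2 and Cxcr4 lower (adjusted p = 0.0363 each), as against 4.32% of all genes tested. Within the Ptch group every one of the 9 genes was higher at 4 than at 2 months, with the ratio of means (2 libraries each) lowest for Tubb3 at 1.10 and highest for Mfap4 at 8.33. Dcx, Sox11, Insm1, Cxcr4 and Mki67 had ratios of 2.80, 2.99, 2.92, 2.88 and 2.94. Ptch 1 and Ptch 2 are also the pair without Y-linked expression, so age cannot be told apart from other features of that pair.

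The libraries labelled AKP lay below or within the range of those labelled Ptch for all of the 9 genes but Tubb3. In AKP against Ptch, by edgeR 0 of 9 genes passed, whereas 5.68% of all genes tested did, and DESeq2 called 0 of 9 beside 12.1% of all genes. At an unadjusted p below 0.05 edgeR had 0 of 9, as against 25.1% of all genes. The fold change was below 0 for 8 of 9 genes, as for 52.3% of all, and the median log2 fold change was -0.46, beside -0.02 over all genes. AKP and Ptch overlapped for 9 of 9 genes, and 24.8% of all genes tested did not overlap. AKP 1 lay below every Ptch library for 9 of 9 genes, while AKP 2 and AKP 3 lay above Ptch 3 and Ptch 4 for 9 of 9. For these parts of the groups the shares of all genes tested were not counted. In the libraries of 2 months (AKP 1 and AKP 2 with Ptch 3 and Ptch 4) the fold change turned to above 0 for Dcx, Sox11, Nhlh1, Nhlh2, Insm1 and Mfap4, with no call. Without the 4 libraries against their sex label the 9 genes had no call either, with 0.27 for Tubb3 and values below 0 for the other 8.

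**Figure D3:**
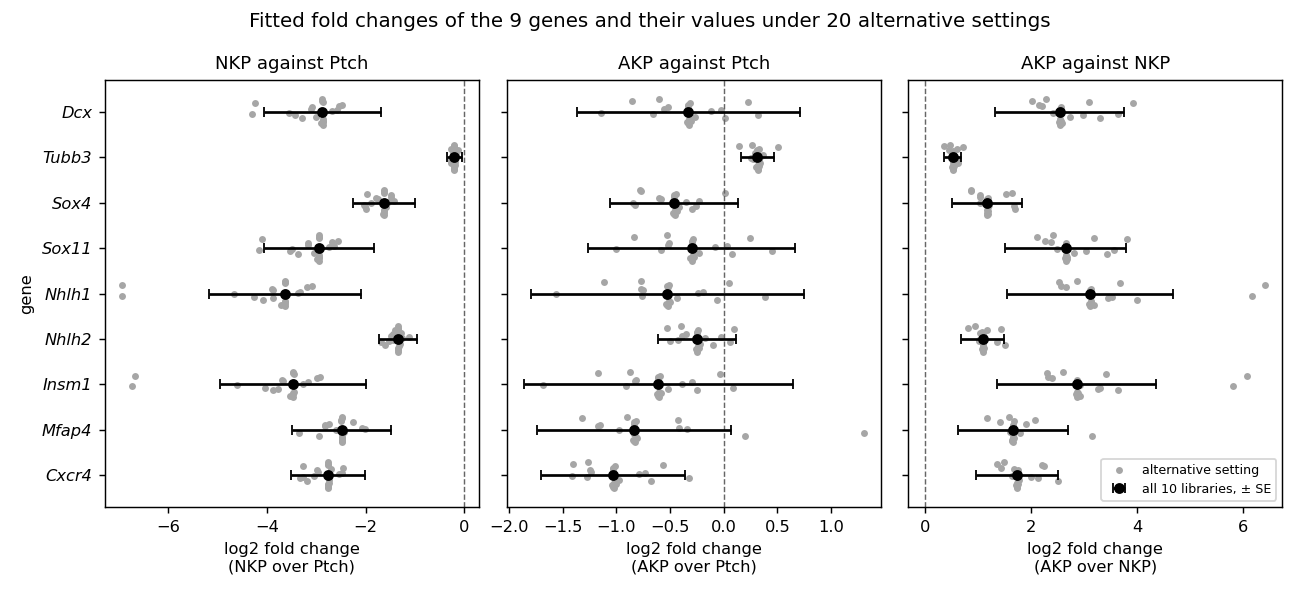
Log2 fold changes of the 9 genes in the 3 comparisons, first named group over the second. Black points are the fit of all 10 libraries with standard errors, and grey points are the 20 alternative settings. All values lie below 0 in NKP against Ptch and above 0 in AKP against NKP, and those in AKP against Ptch lie on both sides of 0 for 7 genes.

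The AKP against NKP comparison sets the Cre lines beside each other. All 9 genes had a fold change above 0, whereas 51.5% of all genes tested lay below 0, and the median was 1.73 beside -0.01 over all genes tested. By DESeq2 0 of 9 passed, beside 1.12% of all genes, but Sox4, Mfap4 and Cxcr4 were given no adjusted p and could not pass. Among the rest, Nhlh2 had the smallest (DESeq2 adjusted p = 0.0503). By edgeR 0 of 9 passed, 0.0064% of all genes did, and 2 of 9 (Tubb3 and Nhlh2) had an unadjusted p below 0.05, as against 16.9%. The groups overlapped for 9 of 9 genes, through AKP 1, and 16.2% of all genes tested did not overlap. Without AKP 1, Tubb3 (log2 fold change 0.71, edgeR adjusted p = 0.00564), Nhlh2 (1.43, adjusted p = 0.0141) and Sox4 (1.64, adjusted p = 0.0340) passed, in a fit that called 4.38% of 16061 genes higher. With the libraries of 4 months only (AKP 3 alone with the 3 NKP), edgeR called Sox4, Nhlh2, Mfap4 and Cxcr4 higher, and 1.06% of all genes. This comparison and the previous ones share libraries, so their values are not independent.

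Other genes of neuronal immaturity, from lists chosen with earlier results of these data known, were counted beside the 9. Of 21 microtubule and growth cone genes, 0 passed in NKP against Ptch, where the median log2 fold change was -0.30. In AKP against Ptch 1 rose and 1 fell, where 3.38% of all genes tested rose and 2.3% fell: Stmn3, a stathmin gene, averaged 1116 ± 115 CPM over AKP (SD, n = 3) and 744 ± 61.1 CPM over Ptch (SD, n = 4), a log2 fold change of 0.58 (edgeR adjusted p = 0.0220). Dclk2, a kinase gene related to Dcx, averaged 50.9 ± 2.15 CPM over AKP (SD, n = 3) and 66.5 ± 7.26 CPM over Ptch (SD, n = 4), a log2 fold change of -0.38 (edgeR adjusted p = 0.0445). Of 24 migration, adhesion and guidance genes, 0 passed in NKP against Ptch (median -0.11). In AKP against Ptch 5 of 24 fell, beside the 2.3% of all genes, and 0 rose (median -0.27), and the 2 with the smallest p were Ntn1, the netrin-1 gene (-0.58, edgeR adjusted p = 0.0209), and L1cam, an adhesion molecule of growing axons (-0.53, edgeR adjusted p = 0.0220). Of 23 tested genes among 26 early neuronal transcription factors and RNA-binding proteins, 0 passed in either comparison, with medians of -0.29 in NKP and -0.23 in AKP against Ptch. The smallest p in AKP belonged to the RNA-binding gene Elavl3 and the zinc-finger gene Myt1, at log2 fold changes of -0.34 and -0.32 (edgeR adjusted p = 0.0779 and 0.0973). The calls in AKP against Ptch rest on a fit whose 887 calls fell to 0 without AKP 3 and to 1 without AKP 2, Ptch 1 or Ptch 2.

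Of 3 other genes of granule neuron maturation, Neurod1 and Gabra6 followed other orders of libraries and Cntn2 did not. Neurod1, which stays on in granule neurons, was at 362, 168 and 273 CPM in AKP 1 to 3 and at 286, 354 and 286 CPM in NKP 1 to 3, against 205, 235, 401 and 347 CPM in Ptch 1 to 4. Gabra6, a GABA receptor subunit of mature granule neurons, was at 539, 184 and 310 CPM in AKP 1 to 3 and at 467, 529 and 406 CPM in NKP 1 to 3, against 221, 234, 453 and 440 CPM in Ptch 1 to 4. It was highest in AKP 1, NKP 2 and NKP 1 and lowest in AKP 2, Ptch 1 and Ptch 2. Cntn2, an adhesion molecule of early granule axons, was between 237 and 365 CPM. Like most of the 9 genes, it was lowest in AKP 1, NKP 2 and NKP 1 and highest in Ptch 1 and Ptch 2. Its NKP libraries lay wholly below its Ptch libraries (log2 fold change -0.34, edgeR adjusted p = 0.218). Markers of proliferating precursors, 6 genes of an earlier stage, had the same 4 highest libraries as the 9 genes. Their 3 lowest libraries were those of all the 9 but Mfap4. They summed to 29.9, 274 and 225 CPM in AKP 1 to 3 and 32.1, 28.8 and 90.6 CPM in NKP 1 to 3. In Ptch 1 to 4 they summed to 407, 436, 165 and 155 CPM. Mature granule markers, also 6 genes, summed to 1640 to 3047 CPM in AKP and 2705 to 3102 CPM in NKP. In Ptch the mature markers summed to 2285 to 2786 CPM.

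**Figure D4:**
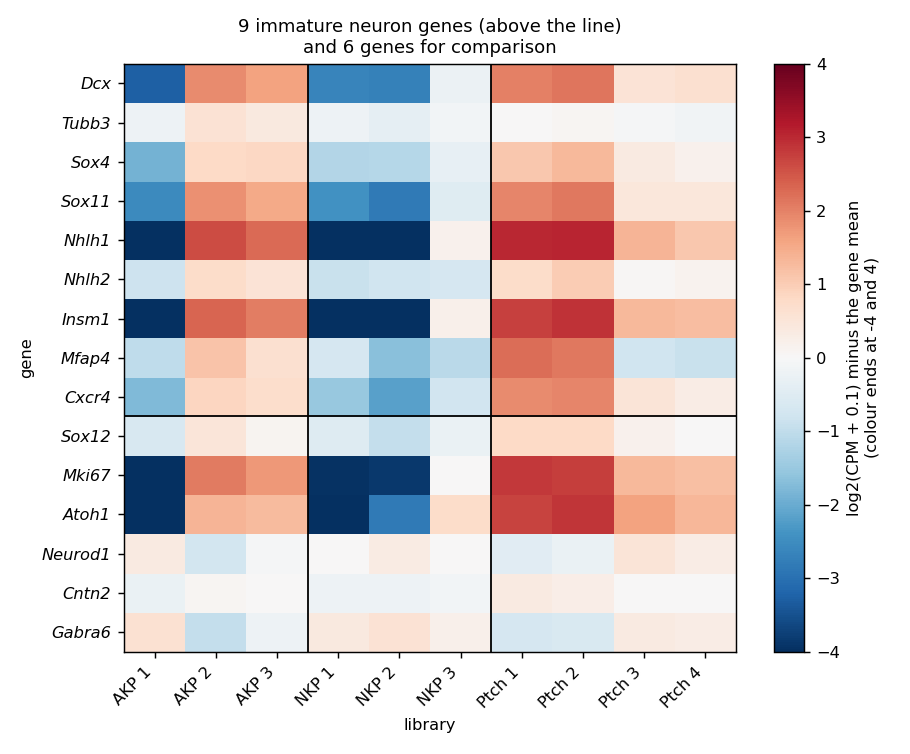
Level of each gene in each library as log2(CPM + 0.1) minus the gene's mean, for the 9 genes (above the line) and 6 others; vertical lines part the AKP, NKP and Ptch libraries. AKP 1, NKP 1 and NKP 2 are blue for the 9 genes, though only faintly for Tubb3, and for Mki67 and Atoh1. Neurod1 and Gabra6 vary little or the other way, and Cntn2 varies little, in the same direction as Tubb3.

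Genes whose order over the 10 libraries was most like that of a member were sought among 11788 tested genes with a mean of at least 5 CPM. Likeness was the mean difference in rank per library, which is 0 where the order is the same. For Dcx 3 genes had the same order: Sufu, an inhibitor of Gli factors, the mitotic checkpoint gene Bub1b and F2r, a thrombin receptor gene. For Insm1 14 genes and for Cxcr4 15 genes had the same order, with Rcc2, G3bp1 and Ptbp1 the most abundant for Insm1, and Ptma, Marcksl1 and Dbn1 for Cxcr4. For Nhlh1 the count was 11, for Sox11 6, for Nhlh2 4 and for Tubb3 1 (Polr1c), followed by 2210016F16Rik and Tph2, Tph2 being also on the brainstem list. For Mfap4 and Sox4 it was 0. Among the 9, Dcx was 0.2 rank from Sox11 and from Nhlh1, and Tubb3 was 1.6 ranks from Dcx, Nhlh2 and Mfap4.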

How the data were processed

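RNA of 10 mouse libraries was sequenced as polyA RNA (TruSeq RNA kit v2, a kit without strand marking), per the labels' protocols. Per the submitters' processing notes, Trim Galore, STAR and RSEM were used with GRCm38. Their versions, and the annotation, were not given in the sources used here. In the deposited table the values are whole; they were read as RSEM's expected counts already rounded by the authors, and were not altered. Library totals ran between 12300430 and 19348991 counts.

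Levels are CPM scaled by TMM (the trimmed mean of M-values). edgeR 4.0.16 (R 4.3.3) kept genes with filterByExpr and tested groups with the robust quasi-likelihood F test fitted jointly to the 10 libraries with group as the only term; p-values were adjusted by Benjamini-Hochberg over all genes tested and called under 0.05. The SE is the size of the log2 fold change divided by the square root of F. DESeq2 1.42.0, other scaling and filters, age or sex label as covariates, matched ages, a replicate block and leaving libraries out were alternatives. Lengths are of the longest GENCODE vM21 transcript. Promoters are from RefSeq (GRCm38.p6), which had entries for 7 of the 9 genes, not Insm1 and Mfap4. Intervals cover counting error only. The labels do not tie libraries to separate animals; p-values then reflect only how these libraries spread, which may be technical. The members, lists and tests were chosen with earlier results of these data known. Named genes were the 9 members, label checks, fixed stage, ligand and SoxC genes, the 2 list genes with the smallest p in AKP against Ptch and the genes most like a member.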

Additional observations from a re-analysis of the deposited data

Results flagged for a closer look

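Cxcl12, the ligand gene of Cxcr4, stood apart in 1 of the 4 Ptch libraries: it was at 39.1 CPM in Ptch 2 and between 42.5 and 43.2 CPM in the other 3. The gap took up 0.846 of the range of the group, above the limit of 0.829 for 4 samples. Over 18 genes screened this was the only such value, and chance gives about 1 in 20.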

How the results depend on the processing

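The 9 genes kept a fold change below 0 in NKP against Ptch and above 0 in AKP against NKP under all 20 alternatives, leave-one-out fits included. The number of them called in NKP against Ptch was 2 by DESeq2, 2 with age as a covariate and 4 in matched ages, and 0 elsewhere. In AKP against NKP it was 4 in matched ages, where AKP 3 is the lone AKP library and is assumed to vary like the others, and 0 to 3 with each library left out, and in AKP against Ptch 0 to 1. Over all genes, NKP against Ptch had 415 calls by DESeq2 (at 0 by edgeR, where 2660 had an unadjusted p under 0.05), 933 with age as a covariate and 2574 in matched ages. AKP against Ptch had 887, but 1887 by DESeq2, 231 with the sex label, 0 in matched ages, 0 once the 4 sex-discordant libraries were dropped, 0 with the replicate block and 0 to 1459 with each library left out. AKP against NKP had 1, but 175 by DESeq2, 196 in matched ages, 0 with age, sex label or replicate block, 0 in the 2 groups alone, 0 once the sex-discordant ones were dropped, and 0 to 1364 with each library left out. In AKP against Ptch signs turned with age as a covariate for Dcx (0.0100), Sox11 (0.080) and Mfap4 (0.20), and in matched ages for Dcx (0.32), Sox11 (0.45), Nhlh1 (0.39), Nhlh2 (0.056), Insm1 (0.088) and Mfap4 (1.304). With each library left out, Dcx ran from -0.86 to 0.23, Sox11 from -0.84 to 0.24, Nhlh1 from -1.11 to 0.053, Nhlh2 from -0.52 to 0.095 and Sox4 from -0.78 to 0.013, each above 0 without AKP 1, and Sox11 also without Ptch 2 (0.031). The cause was not tested. Same-numbered libraries shared only a number: their deviations correlated between -0.46 and 0.47, and the replicate block gave 0 calls of the 9 genes in each comparison. At 2 to 6 counts, depth limits Nhlh1 in AKP 1, NKP 1 and NKP 2.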

Other observations

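Markers of several other cell types had orders of libraries unlike those of the immature neuron genes. Microglia markers, proliferating precursor markers and the microtubule and growth cone genes, each summed, shared the 4 highest libraries with the immature neuron genes. Oligodendrocyte markers, 5 genes of myelin, summed to 7198 to 9197 CPM in AKP and 6391 to 10245 CPM in NKP, against 4915 to 6179 CPM in Ptch, so all libraries labelled AKP or NKP lay above all labelled Ptch. The same held for 4 GABAergic interneuron markers, which summed to 1842 to 2534 CPM in AKP and 1798 to 2503 CPM in NKP, against 1351 to 1768 CPM in Ptch, and for 6 endothelial markers, at 187 to 226 CPM in AKP and 188 to 224 CPM in NKP, against 128 to 174 CPM in Ptch. Of the interneuron markers, 4 of 4 had a fold change above 0 in NKP against Ptch. In AKP against Ptch 3 of 4 had one below 0, with a median log2 fold change of -0.10. The higher sum in AKP thus does not hold for each interneuron marker. By edgeR 0 genes of these 3 lists passed in NKP against Ptch. In AKP against Ptch 2 rose (1 endothelial and 1 interneuron marker), where 3.38% of all genes tested rose. The 4 astrocyte and Bergmann glia markers overlapped between the groups, with 1251 to 1586 CPM in AKP and 1454 to 1680.03 CPM in NKP, against 1431 to 1647 CPM in Ptch.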
